A study of Mus musculus with 16 samples.

Results

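Microglia that lacked Grn were compared with WT microglia while both were exposed to rimeporide. The comparison was set by the sample labels: the 4 libraries of the Grn KO group with rimeporide against the 4 of the WT group with rimeporide, 8 of the 16 libraries of the series. The other 8 libraries were WT and Grn KO cells given the vehicle DMSO, and they entered the fit, which shares 1 estimate of spread, and the genotype contrast set beside the one in rimeporide. All were primary microglia from brains of newborn mice aged 1 to 3 days after birth. Cortex and hippocampus were grown as a mixed glial culture, and the loosely attached microglia were shaken off, with no sort or gate named in the labels. Rimeporide was given at 2 uM for 72 h. The sources used here give neither the Grn allele and its deleted part nor the strain, and although the labels call the replicates biological they do not say which cultures or animals the numbers stand for, so that p-values measure the spread between libraries. RNA integrity numbers were 10 in WT and 9.9 or 10 in KO, where 1 was not given. Polyadenylated RNA was read from its 3′ end. Totals in the 8 libraries ran from 4018800 to 5966708 counts, and levels are given as CPM, counts scaled to a common library total.

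Grn encodes progranulin, a secreted glycoprotein that is taken up into lysosomes and cut into granulins there. People who carry an inactive copy of the human gene can develop frontotemporal dementia, and loss of both copies causes a lysosomal storage disease. Microglia are the resident macrophages of the brain and a main source of progranulin in it. Rimeporide is a small molecule inhibitor of sodium-proton exchange.

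The targeted gene was read first. Grn was at 1597, 1599, 1648 and 1672 CPM in WT libraries 1 to 4 and at 13.8, 13.7, 24.2 and 18.4 CPM in KO libraries 1 to 4. The KO libraries were far below every WT library, with a low remainder of tags in each. The log2 fold change was -6.50 ± 0.13 (SE, as throughout), with an edgeR adjusted p of 1.63e-20. Of 22 microglia identity genes 21 were tested, and summed over them the level was 4030.1 to 4195 CPM in WT and 3811 to 4158 CPM in KO. The other one, the microglial lectin Siglech, was near absent, with 0 counts in all 4 WT libraries together and 2 in all 4 KO libraries.

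Of 12272 genes tested, 631 were higher and 285 were lower in KO at an adjusted p under 0.05 (edgeR quasi-likelihood test, Benjamini-Hochberg adjustment over all genes). That is 5.14% higher and 2.32% lower, or 7.46% in all, the background against which the counts of each gene group below are to be read. The median log2 fold change of all genes was 0.01. In 570 of the genes called higher every KO library was above every WT library, and in 258 of those called lower every KO library was below, while over all genes such separation occurred in 7.33% upwards and 5.25% downwards. The size and direction of the calls depended on abundance. Among 2568 genes under 5 CPM on average over the 16 libraries 256 rose (9.97%) and 18 fell (0.70%). The median absolute change among those called was 2.48 on the log2 scale. Among 313 genes at 500 CPM and over 14 rose (4.47%) and 28 fell (8.95%), with a median absolute change of 0.37. Of the genes that rose 381 changed more than 2-fold, and of those that fell 40.

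**Figure D1:**
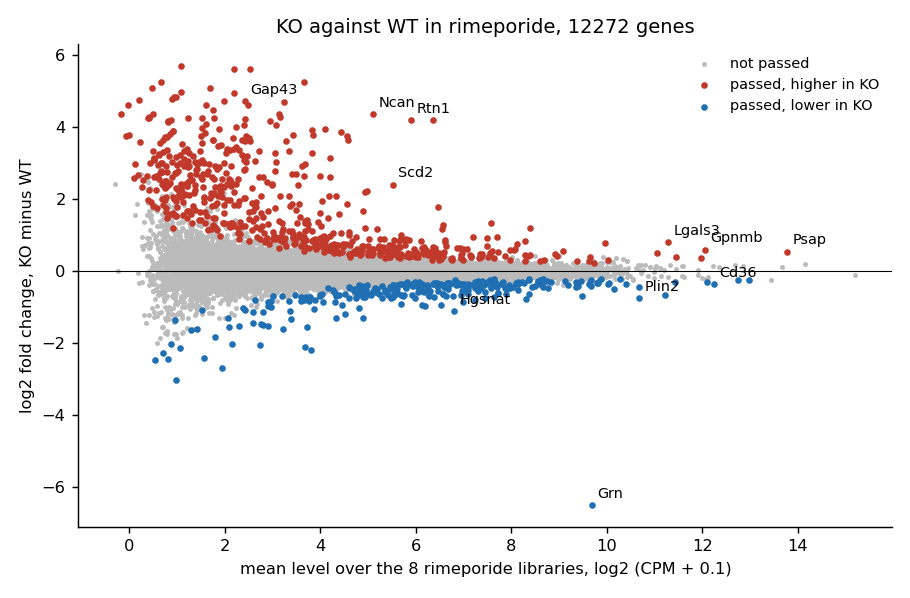
Log2 fold change of KO against WT in rimeporide (vertical axis) against the mean level over the 8 libraries on a log2 scale (horizontal axis), 1 point for each of 12272 genes, coloured where the gene passed the test. The points called higher fan out to the left, among scarce transcripts, and Grn stands alone at the bottom at -6.50.

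All 15 of the largest increases at 5 CPM or more on average are listed here, since they were named by size: Amph, Ppp2r2b, Gap43, Klhl13, Lhfpl3, Hopx, Ncan, Tmod2, Gria2, Gpm6b, Rtn1, Fbxo2, Tnr, Ptprz1 and Sparcl1. Rtn1 was at 4.94, 6.55, 4.83 and 8.37 CPM in WT libraries 1 to 4 and at 104, 133, 132 and 80.7 CPM in KO libraries 1 to 4. No KO library came near the WT range of this reticulon, an endoplasmic reticulum protein abundant in neurons. On the log2 scale the change of KO against WT was 4.19 ± 0.20, with an edgeR adjusted p of 1.89e-12. For neurocan, a chondroitin sulfate proteoglycan of brain matrix, Ncan was at 2.47, 3.88, 2.2 and 4.29 CPM in WT libraries 1 to 4 and at 55.2, 78.8, 72.4 and 54.3 CPM in KO libraries 1 to 4. Here too the groups were far apart, with 4.35 ± 0.25, edgeR adjusted p = 4.2e-11. Gap43 was at 0.881, 0.486, 0 and 0 CPM in WT libraries 1 to 4 and at 9.29, 15, 9.53 and 6.73 CPM in KO libraries 1 to 4. This growth cone protein was at or below 1 CPM in every WT library, and the log2 fold change was 4.72 ± 0.54, with an edgeR adjusted p of 1.87e-06. Gria2 was at 0.353, 0.971, 0.439 and 0.408 CPM in WT libraries 1 to 4 and at 4.77, 10.3, 11.4 and 13.7 CPM in KO libraries 1 to 4. The AMPA receptor subunit was low in all WT libraries and higher in each KO library, with 4.21 ± 0.55, edgeR adjusted p = 1.23e-05.

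Of 19 neuron markers 9 rose, also with no filter on low counts. Only 11 were abundant enough to test, and 7 of these reached the filter (2.06 CPM in 4 libraries) in KO libraries but not in WT, so that the share of tested markers that rose was in part set by the filter. The summed level of the 11 was 15.6 to 24.9 CPM in WT and 171.4 to 245.2 CPM in KO, and Rtn1, given above, made up a large part of the KO sum. The microtubule-associated protein Map2 changed by 2.95 ± 0.31, edgeR adjusted p = 4.85e-07, and the neuronal tubulin Tubb3 by 2.07 ± 0.25, edgeR adjusted p = 3.96e-06. The 8 markers not tested were scarce in both genotypes. Among them Snap25 had 7 counts in all 4 WT libraries together and 24 in all 4 KO libraries, Rbfox3 had 17 and 11, Nefl had 1 and 3, and Slc17a7 had 3 in each. Of 16 astrocyte markers 8 rose, 1 of which reached the filter in WT, and the 13 tested had a summed level of 327.3 to 371.8 CPM in WT and 390.1 to 402.9 CPM in KO. Gfap was at 0.353, 2.18, 0.659 and 0.816 CPM in WT libraries 1 to 4 and at 8.03, 7.36, 10.7 and 9.97 CPM in KO libraries 1 to 4. The intermediate filament of astrocytes was scarce in both genotypes and did not overlap between them, with 3.23 ± 0.36, edgeR adjusted p = 1.3e-06. The glutamate transporter Slc1a2 changed by 3.73 ± 0.37, edgeR adjusted p = 3.06e-07, whereas the cytosolic enzyme Aldh1l1 and the gap junction protein Gja1 did not pass. Every KO library was above every WT library in 6 of the 13 tested astrocyte markers and below in 2. Over all genes this held for 7.33% and 5.25%, and none of the 13 passed as lower.

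Of 15 oligodendrocyte lineage markers 10 were tested and 5 rose, of which 0 reached the filter in WT. The 5 were early markers, the transcription factors Olig1 and Olig2, the phosphatase receptor Ptprz1, the growth factor receptor Pdgfra and the proteoglycan Cspg4, and the count was 3 without KO library 2 and 2 when the DMSO libraries were kept out of the fit. Olig1 was at 0, 0.486, 0 and 0.204 CPM in WT libraries 1 to 4 and at 7.78, 12.8, 7.85 and 6.73 CPM in KO libraries 1 to 4. The myelin genes Mbp and Cnp did not pass. Among radial glia genes 9 of 10 were tested, of which 5 rose and 2 fell. Of the 9, 3 reached the filter in KO libraries but not in WT, and of the 5 that rose 2 reached it in WT. Sox2, a transcription factor of neural stem cells and glia, rose with 3.02 ± 0.33, edgeR adjusted p = 1.24e-06. In bulk RNA more cells of a type and more RNA per cell cannot be told apart, and the part of other cell types in the results below was not tested.

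**Figure D2:**
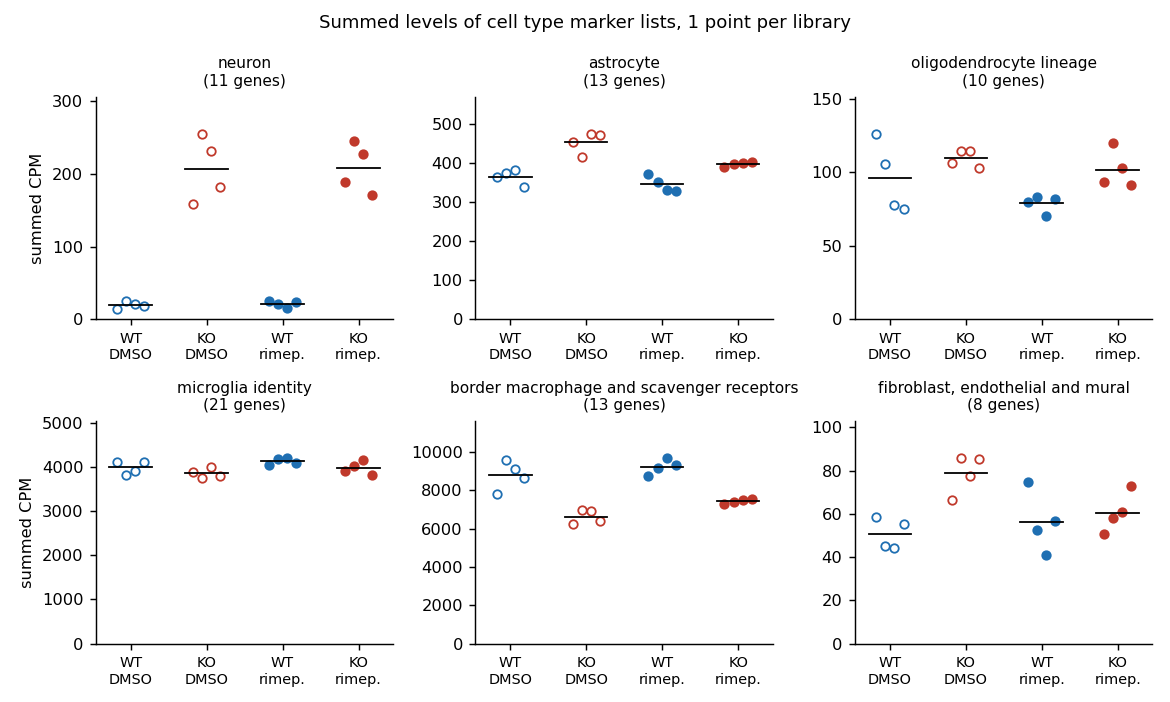
Summed level of the tested genes of 6 marker lists (vertical axes, CPM, each with its own range from 0) in each of the 16 libraries, with a bar at each group's mean. The neuron list is at 15.6 to 24.9 CPM in WT and 171.4 to 245.2 CPM in KO with rimeporide, while the microglia list overlaps between the genotypes. Rtn1 is a large part of the neuron sum in KO, and 7 of the 11 neuron genes reached the count filter in KO libraries but not in WT.

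The sterol genes that passed were all higher in KO. Cholesterol is made from acetyl-CoA through mevalonate and squalene, and the transcription factor SREBP-2 (Srebf2) raises the genes of this route and of lipoprotein uptake when sterol in the endoplasmic reticulum is low. Of 33 genes 31 were tested, 16 rose, and none of the others fell, with a median log2 fold change of 0.48. The SREBP-2 targets whose promoters are shown here, Hmgcs1 (HMG-CoA synthase), Idi1 (isopentenyl diphosphate isomerase) and Insig1 (which holds SREBP in the endoplasmic reticulum), were chosen as those with the smallest p among the genes with a sequence on hand. The sequences are from RefSeq on build GRCm38.p6, 250 bases before to 50 bases after the start of each gene. Capitals mark a sterol response element searched as TCACNCCAC and the CCAAT box bound by NF-Y, each on either strand (a CCAAT box on the other strand reads ATTGG).
Hmgcs1, chr13:119690101-119690400, plus strand: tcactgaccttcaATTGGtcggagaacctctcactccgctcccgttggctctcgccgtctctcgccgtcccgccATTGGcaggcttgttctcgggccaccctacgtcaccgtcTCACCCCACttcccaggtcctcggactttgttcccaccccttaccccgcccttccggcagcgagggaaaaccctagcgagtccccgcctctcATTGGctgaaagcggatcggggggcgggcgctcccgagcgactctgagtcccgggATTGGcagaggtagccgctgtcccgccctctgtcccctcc
Idi1, chr13:8885356-8885655, plus strand: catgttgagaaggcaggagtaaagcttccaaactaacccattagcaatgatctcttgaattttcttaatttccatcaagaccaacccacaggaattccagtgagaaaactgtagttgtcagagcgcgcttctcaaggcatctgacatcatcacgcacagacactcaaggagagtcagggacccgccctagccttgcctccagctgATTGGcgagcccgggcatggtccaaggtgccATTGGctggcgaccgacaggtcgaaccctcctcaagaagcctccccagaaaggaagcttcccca
Insig1, chr5:28071162-28071461, plus strand: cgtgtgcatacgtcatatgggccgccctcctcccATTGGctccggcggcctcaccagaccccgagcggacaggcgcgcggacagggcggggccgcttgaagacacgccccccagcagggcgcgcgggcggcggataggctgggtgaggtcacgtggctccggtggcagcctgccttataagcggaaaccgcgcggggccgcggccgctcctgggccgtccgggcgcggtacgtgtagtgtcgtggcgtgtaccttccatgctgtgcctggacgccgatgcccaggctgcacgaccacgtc

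Of the 24 tested sterol genes with a window, 1 held the sterol element, Hmgcs1, against 1.38% of the 8854 tested genes with a window. A CCAAT box was in 22 of the 24, and in 9 of the 9 that passed, against 43.6% of the tested genes with a window. The windows of the 15 that did not pass held it in 13 cases. These are matches of letters and not measured binding, and the motifs do not overlap in the windows shown.

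Hmgcs1 was at 88, 109, 93.8 and 109 CPM in WT libraries 1 to 4 and at 175, 195, 201 and 201 CPM in KO libraries 1 to 4. HMG-CoA synthase, at the entry of the mevalonate arm, was higher in every KO library than in any WT library. Between the genotypes the log2 fold change was 0.95 ± 0.10, with an edgeR adjusted p of 7.6e-07. Idi1 was at 60.3, 47.8, 45.9 and 65.7 CPM in WT libraries 1 to 4 and at 164, 118, 107 and 148 CPM in KO libraries 1 to 4. The KO libraries varied more for this gene but did not reach down to the WT range, and the log2 fold change was 1.28 ± 0.15, with an edgeR adjusted p of 1.87e-06. Insig1 was at 24.3, 26, 19.8 and 19.2 CPM in WT libraries 1 to 4 and at 63.8, 42, 41.6 and 52.1 CPM in KO libraries 1 to 4. The SREBP retention factor kept the same order without overlap, and the log2 fold change was 1.15 ± 0.15, with an edgeR adjusted p of 7.19e-06.

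The squalene epoxidase Sqle changed by 0.68 ± 0.12, edgeR adjusted p = 0.000394. Further along, the lanosterol demethylase Cyp51 changed by 0.89 ± 0.14, edgeR adjusted p = 0.000144, and the methylsterol oxidase Msmo1 by 0.48 ± 0.07, edgeR adjusted p = 6.56e-05. Srebf2 itself changed by 0.71 ± 0.13, edgeR adjusted p = 0.000828, and the sterol carrier Stard4 by 1.01 ± 0.21, edgeR adjusted p = 0.002. By role, 5 of 9 genes of the mevalonate arm, 6 of 12 from squalene to cholesterol and 5 of 10 of control and uptake rose, and the summed level was 1668 to 1813 CPM in WT and 2270.5 to 2429 CPM in KO. Of the 16, 4 lost the call when 1 library was left out, among them Fdps (0.0679 without KO library 3), Mvd (up to 0.0698, without WT library 1) and Soat1 (up to 0.137, without WT library 1).

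**Figure D3:**
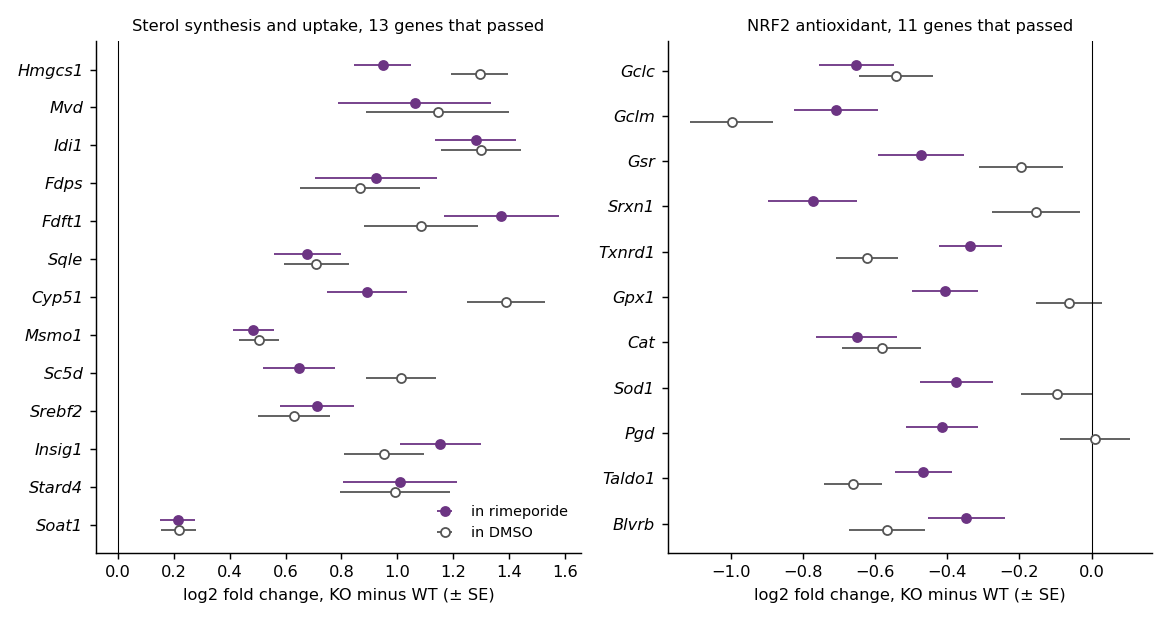
Log2 fold change of KO against WT with its SE (horizontal axes) in rimeporide (filled) and in DMSO (open), for 13 of the sterol genes and the 11 NRF2 genes that passed in rimeporide; these genes were chosen by the rimeporide values. The sterol points lie at 0.21 to 1.37 in rimeporide and the NRF2 points at -0.77 to -0.34.

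Of 18 genes of synthesis and desaturation 17 were tested and 7 rose, 6 of which reached the filter in WT. The count that rose was 4 without any 1 of WT libraries 2 and 3 and KO libraries 1 and 4. Scd2 was at 15.9, 16.3, 12.1 and 14.1 CPM in WT libraries 1 to 4 and at 77.3, 87.9, 71.4 and 70.3 CPM in KO libraries 1 to 4. This stearoyl-CoA desaturase, which makes monounsaturated fatty acids, did not overlap between the genotypes, with 2.39 ± 0.14, edgeR adjusted p = 4.2e-11. The fatty acid activating enzyme Acsl3 changed by 0.91 ± 0.10, edgeR adjusted p = 1.44e-06, and the desaturase Fads2 by 1.66 ± 0.25, edgeR adjusted p = 6.96e-05. Scd2 is also abundant in glia and neurons, and the part of the neural transcripts above in these values was not tested.

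Genes of cholesterol export and of lipid droplets were mixed. Of 16 tested LXR targets 5 rose, 4 of which reached the filter in WT, and 1 fell, with a median of 0.24. Of the 5, Scd1 and Scd2 stand in the fatty acid list too, and Pltp had 0.0527 without KO library 3. Cd5l was at 120.0, 112, 99.3 and 102 CPM in WT libraries 1 to 4 and at 333, 272, 252 and 232 CPM in KO libraries 1 to 4. The secreted macrophage protein CD5L was higher in each KO library, and the log2 fold change was 1.33 ± 0.14, with an edgeR adjusted p of 4.02e-07. The cholesterol exporter Abcg1 changed by 0.62 ± 0.13, edgeR adjusted p = 0.00201, whereas Abca1 and Apoe did not pass. Of 30 tested genes of lipid droplets and lipid handling 4 rose, 3 of which reached the filter in WT, and 5 fell. Of those that fell, Lpin2 lost the call without some libraries (up to 0.0947, without WT library 3). Mgll was at 50.1, 37.1, 41.5 and 32 CPM in WT libraries 1 to 4 and at 127, 152, 152 and 117 CPM in KO libraries 1 to 4. Monoacylglycerol lipase, which splits off the last fatty acid of a triglyceride, was thus higher in KO without overlap, with 1.77 ± 0.14, edgeR adjusted p = 5.34e-09. Plin2 was at 1987, 2101, 2087 and 2023 CPM in WT libraries 1 to 4 and at 1300.5, 1219, 1089.6 and 1254 CPM in KO libraries 1 to 4. The droplet coat protein perilipin 2 went the other way in every library, with -0.75 ± 0.07, edgeR adjusted p = 1.12e-07. The lipoprotein lipase inhibitor Angptl4 fell (-1.62 ± 0.25, edgeR adjusted p = 8.41e-05), as did Cpt1a, which imports fatty acids into mitochondria (-0.68 ± 0.11, edgeR adjusted p = 0.000125), and the fatty acid binding proteins Fabp4 (0.70 ± 0.10, edgeR adjusted p = 2.12e-05) and Fabp5 (0.49 ± 0.07, edgeR adjusted p = 3.93e-05) rose.

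The antioxidant genes under NRF2 that passed were all lower in KO. NRF2 is a transcription factor freed by oxidants and electrophiles that binds antioxidant response elements. The 30 genes listed include NRF2 itself (Nfe2l2) and its regulator Keap1, neither of which passed. Of the 30, 28 were tested and 11 passed, all of them lower. The median log2 fold change was -0.31 over the 28, and the summed level was 9892 to 10539 CPM in WT and 8470.3 to 8793 CPM in KO. The promoters of Srxn1 (sulfiredoxin, which restores oxidised peroxiredoxins) and Gclm (the modifier subunit of the enzyme that starts glutathione synthesis) are shown from the same source, with matches to TGACNNNGC or TGAGNNNGC on either strand in capitals.
Srxn1, chr2:152105274-152105573, plus strand: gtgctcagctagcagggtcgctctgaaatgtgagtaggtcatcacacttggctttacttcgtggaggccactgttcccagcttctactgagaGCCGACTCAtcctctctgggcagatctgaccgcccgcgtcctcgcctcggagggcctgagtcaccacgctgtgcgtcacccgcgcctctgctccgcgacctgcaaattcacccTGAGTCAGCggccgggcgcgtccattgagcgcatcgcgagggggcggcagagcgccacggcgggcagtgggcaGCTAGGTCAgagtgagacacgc
Gclm, chr3:122245307-122245606, plus strand: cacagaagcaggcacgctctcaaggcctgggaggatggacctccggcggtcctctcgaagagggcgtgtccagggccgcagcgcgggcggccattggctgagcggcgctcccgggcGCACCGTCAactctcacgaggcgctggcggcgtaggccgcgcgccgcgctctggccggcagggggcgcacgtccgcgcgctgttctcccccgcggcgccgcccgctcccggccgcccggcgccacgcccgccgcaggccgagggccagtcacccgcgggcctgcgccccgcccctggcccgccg

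One of these 2 forms was in 14 of the 24 tested NRF2 genes with a window and in 7 of the 9 that passed, against 35.8% of the tested genes with a window. The form with G in the fourth place was added after the first search, and 14 of the 24 sterol genes held a match too. Srxn1 was at 454, 404, 333 and 406 CPM in WT libraries 1 to 4 and at 249.8, 225, 222 and 239 CPM in KO libraries 1 to 4. Every KO library was below every WT library, and the log2 fold change was -0.77 ± 0.12, with an edgeR adjusted p of 0.000158. Gclc was at 66.5, 57.3, 53.8 and 49.4 CPM in WT libraries 1 to 4 and at 37.4, 34.6, 35.8 and 36.9 CPM in KO libraries 1 to 4. The catalytic subunit of glutathione synthesis was again lower in each KO library, with -0.65 ± 0.10, edgeR adjusted p = 0.000157, and Gclm changed by -0.71 ± 0.12, edgeR adjusted p = 0.000201. Catalase (Cat) changed by -0.65 ± 0.11, edgeR adjusted p = 0.00032, and the pentose phosphate enzyme Taldo1 by -0.47 ± 0.08, edgeR adjusted p = 0.000314. Of the 11, 4 lost the call without 1 library, namely Gsr (0.0532 without WT library 2), Txnrd1 (up to 0.0549, without WT library 2), Sod1 (up to 0.12, without WT library 1) and Blvrb (up to 0.145, without WT library 1). The count was 6 when WT libraries 1 and 2 were both left out, and 5 when a change above 1.2-fold was asked for.

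Iron genes moved in both directions. Of 15 tested 2 rose and 3 fell. Ncoa4, the receptor that carries ferritin to lysosomes, rose (0.43 ± 0.07, edgeR adjusted p = 0.000161). Slc11a1, which exports iron and manganese from phagosomes, fell (-0.66 ± 0.11, edgeR adjusted p = 0.00022), and so did transferrin, Trf (-0.29 ± 0.07, edgeR adjusted p = 0.00708). The calls of Tfrc (up to 0.161 without WT library 2) and Slc40a1 (up to 0.0975 without WT library 1) ended without some libraries. The ferritin chains Fth1 and Ftl1 did not pass.

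Lysosomal genes bear on the acidification of lysosomes that the series is named for, and they passed singly, in both directions. Of 54 tested genes listed as hydrolases and activators 3 rose and 3 fell, with a median log2 fold change of 0.08. The 3 that rose were Psap, Ctsz and Pla2g7. Pla2g7, listed with lipid and phosphate enzymes, changed by 1.83 (edgeR adjusted p = 0.000439), and where its product acts was not tested. Psap was at 11238, 11946, 12064 and 10688 CPM in WT libraries 1 to 4 and at 18054, 17268, 15532 and 15561 CPM in KO libraries 1 to 4. Prosaposin, the precursor of the saposins and a binding partner of progranulin, was higher in every KO library. Its log2 fold change was 0.53 ± 0.08, with an edgeR adjusted p of 5.31e-05. Hgsnat was at 152, 162, 167 and 133 CPM in WT libraries 1 to 4 and at 60.5, 65.5, 78.5 and 76 CPM in KO libraries 1 to 4. This membrane acetyltransferase of heparan sulfate breakdown was lower in every KO library, with -1.13 ± 0.11, edgeR adjusted p = 1.23e-07. No other one of the 17 genes of glycosaminoglycan and glycan breakdown passed. Among 15 tested cathepsins and legumain, Ctsz alone passed, with 0.29 ± 0.08, edgeR adjusted p = 0.0278, and it lost the call in 6 leave-one-out fits (up to 0.105, without KO library 3). The acid lipase Lipa, among those that fell, lost it too (up to 0.109, without WT library 1).

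Of 29 lysosomal membrane proteins 2 rose and 1, Slc11a1, fell. The tetraspanin Cd63 rose (0.35 ± 0.06, edgeR adjusted p = 0.000494), and the call of Mfsd12 ended without 1 library in 4 cases (up to 0.0783, without KO library 1). The V-ATPase pumps protons into the lysosome. Of 20 tested subunits 3 rose, all of the V0 sector in the membrane, and 2 of the 3 reached the filter in WT. The V1 sector held 9 of the 20, of which 0 passed and 0 had an unadjusted p under 0.05 in edgeR. Atp6v0d2 was at 183, 226, 219 and 233 CPM in WT libraries 1 to 4 and at 292, 338, 351 and 299 CPM in KO libraries 1 to 4. This subunit, abundant in osteoclasts and macrophages, was higher in each KO library, with 0.57 ± 0.11, edgeR adjusted p = 0.000713. The subunit Atp6v0a1 changed by 0.40 ± 0.10, edgeR adjusted p = 0.00798, and the scarce Atp6v0e2, which is abundant in brain, by 2.79 ± 0.36, edgeR adjusted p = 1.01e-05. Of 23 tested genes of pH and lysosomal ion transport, 0 passed in edgeR and 0 in DESeq2, and 5 had an unadjusted p under 0.05 in edgeR.

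Of 29 genes of the TFEB family and autophagy 1 rose and 2 fell. The autophagy receptor Sqstm1 fell (-0.31 ± 0.07, edgeR adjusted p = 0.00796), while the other 2 calls ended without some libraries: Rragd, a GTPase of mTORC1 signalling, had up to 0.0717 without KO library 1, and Uvrag up to 0.0839 without WT library 1. Among 17 genes listed as progranulin and its partners, Psap rose and Lrp1 and Bmp2 fell, besides Grn, the targeted gene itself. The endocytic receptor Lrp1 changed by -0.48 ± 0.09, edgeR adjusted p = 0.000926, and the bone morphogenetic protein Bmp2 by -0.59 ± 0.14, edgeR adjusted p = 0.00913. Sort1, the receptor that takes up progranulin, did not pass.

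Genes that microglia raise around damaged tissue were higher in part. Of 31 tested disease-associated microglia genes 7 rose and 1 fell, with a median log2 fold change of 0.13. Lgals3 was at 1829.8, 1835, 2029 and 1639 CPM in WT libraries 1 to 4 and at 2961, 3096, 3491 and 3095 CPM in KO libraries 1 to 4. Galectin-3, a lectin that binds damaged lysosomes, did not overlap between the genotypes. The log2 fold change was 0.79 ± 0.08, with an edgeR adjusted p of 3.7e-07. Gpnmb was at 3639.8, 3224, 3322 and 3479 CPM in WT libraries 1 to 4 and at 5553, 4977, 4478 and 5493 CPM in KO libraries 1 to 4. This membrane glycoprotein of lysosomes was higher in each KO library as well, with 0.59 ± 0.08, edgeR adjusted p = 1.96e-05. The pattern recognition receptor Clec7a rose (0.46 ± 0.08, edgeR adjusted p = 0.000713), and so did Mamdc2 (2.08 ± 0.24, edgeR adjusted p = 2.35e-06). Igf1 was at 1887, 1975, 1899 and 1785 CPM in WT libraries 1 to 4 and at 1379.8, 1355, 1396 and 1358 CPM in KO libraries 1 to 4. The growth factor was lower in every KO library, with -0.46 ± 0.06, edgeR adjusted p = 1.41e-05.

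Several macrophage receptors were lower. Of 13 tested border macrophage and scavenger receptor genes 6 passed, all of them lower, with a median of -0.29 and a summed level of 8751 to 9666 CPM in WT and 7267 to 7526 CPM in KO. Folr2 was at 103, 103, 95.3 and 114 CPM in WT libraries 1 to 4 and at 66.3, 63.1, 59 and 63 CPM in KO libraries 1 to 4. The folate receptor of tissue macrophages was lower in each KO library, with -0.73 ± 0.10, edgeR adjusted p = 1.65e-05. The scavenger receptors Msr1 (-0.52 ± 0.09, edgeR adjusted p = 0.000318), Cd36 (-0.37 ± 0.09, edgeR adjusted p = 0.0115) and Marco (-1.58 ± 0.38, edgeR adjusted p = 0.00819), the mannose receptor Mrc1 (-0.38 ± 0.09, edgeR adjusted p = 0.0082) and the platelet factor Pf4 (-0.48 ± 0.10, edgeR adjusted p = 0.00353) fell too. Of 21 tested microglia identity genes 1 rose and 4 fell. The lysophosphatidylserine receptor Gpr34 rose (0.75 ± 0.17, edgeR adjusted p = 0.00522). The 4 that fell, Cx3cr1, Tmem119, Runx1 and Itgam, each lost the call without some libraries, and the number of identity genes that fell was 2 without WT library 3, KO library 1, 3 or 4 or the KO library 3 of DMSO, and 1 without WT library 4 or KO library 2.

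Of 13 tested complement genes 7 passed, all lower, with a median of -0.23. The C5a receptor C5ar1 (-0.43 ± 0.07, edgeR adjusted p = 0.000235) and the C1q chain C1qa (-0.38 ± 0.09, edgeR adjusted p = 0.00461) kept the call in every leave-one-out fit, while the number that passed was 4 without WT library 1 or KO library 2 or 4, and 3 without KO library 1. Cd14 was at 161, 166, 172 and 158 CPM in WT libraries 1 to 4 and at 87.9, 95.7, 89.6 and 84.7 CPM in KO libraries 1 to 4. This lipopolysaccharide co-receptor was lower in each KO library, and the log2 fold change was -0.88 ± 0.09, with an edgeR adjusted p of 3.96e-07. The Toll-like receptor adaptor Myd88 was lower as well (-0.47 ± 0.11, edgeR adjusted p = 0.00801), and these were the 2 of 18 Toll-like receptor genes that passed. Of 17 tested chemokines Cxcl14 (-0.65 ± 0.09, edgeR adjusted p = 2.12e-05) and Pf4 fell. Of 21 tested NF-kB genes the inhibitor Tnip1 rose (0.49 ± 0.10, edgeR adjusted p = 0.00279) and the prostaglandin synthase Ptgs2 fell (-1.83 ± 0.40, edgeR adjusted p = 0.00377). In edgeR 0 of 37 interferon response genes passed, with 1 at an unadjusted p under 0.05, and in DESeq2 0 passed. The same held for 0 of 12 antigen presentation genes, with 2 at an unadjusted p under 0.05.

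Of 20 tested genes of TGF-beta signalling and matrix 1 rose and 5 fell. Ccn2 was at 37.9, 25.2, 9.44 and 10.6 CPM in WT libraries 1 to 4 and at 4.02, 5.16, 5.18 and 4.73 CPM in KO libraries 1 to 4. This matricellular protein was higher in WT libraries 1 and 2 than in 3 and 4, and all of them were above the KO libraries, with -2.12 ± 0.39, edgeR adjusted p = 0.000694. Col1a1 was at 12.2, 6.07, 3.07 and 4.69 CPM in WT libraries 1 to 4 and at 0.502, 0.736, 1.17 and 1.49 CPM in KO libraries 1 to 4. The collagen chain, a fibroblast marker, changed by -2.70 ± 0.47, edgeR adjusted p = 0.000386. Without WT libraries 1 and 2, an alternative chosen after these levels were seen, 1 of the 5 matrix genes remained among those that fell, and the adjusted p was 0.1 for Ccn2 and 0.5 for Timp1. Timp1 also lost the call without WT library 1 (0.0713), and Mmp13 without some libraries (up to 0.13, without WT library 4). Of 8 tested fibroblast, endothelial and mural markers 1 rose, Vwf, and 2 fell, Col1a1 and Tagln. The calls of Vwf (up to 0.103, without KO library 4) and Tagln (up to 0.127, without WT library 1) ended without some libraries. The summed level of the 8 was 40.9 to 74.6 CPM in WT and 50.7 to 72.8 CPM in KO.

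Of 45 tested genes of cell division 10 rose and 3 fell, with a median of 0.31. Among 20 genes of replication 1 rose and 0 fell. The other 25, of mitosis together with D cyclins and cyclin-dependent kinase inhibitors, held 9 that rose and the 3 that fell, Ccnd1, Ccnd2 and Cdkn1a. Ccnb1 was at 37.7, 28.6, 33.2 and 39.8 CPM in WT libraries 1 to 4 and at 64, 56, 49.8 and 55.6 CPM in KO libraries 1 to 4. Cyclin B1, which drives entry into mitosis, was higher in each KO library, with 0.68 ± 0.13, edgeR adjusted p = 0.00118. Top2a was at 85.5, 73.6, 70.9 and 83.5 CPM in WT libraries 1 to 4 and at 129, 98.7, 99.3 and 127 CPM in KO libraries 1 to 4. For DNA topoisomerase II alpha the KO libraries were again above the WT range, with 0.53 ± 0.11, edgeR adjusted p = 0.00313, and the proliferation antigen Mki67 changed by 0.88 ± 0.19, edgeR adjusted p = 0.00405. Ccnd1 was at 722, 965, 787 and 1071 CPM in WT libraries 1 to 4 and at 569.8, 536, 518 and 558 CPM in KO libraries 1 to 4. The G1 cyclins D1 and D2 were lower in every KO library, with -0.70 ± 0.11, edgeR adjusted p = 0.000112 for Ccnd1 and -0.68 ± 0.13, edgeR adjusted p = 0.000744 for Ccnd2. The call of Cdkn1a ended without some libraries (up to 0.0629, without WT library 2), and the number that rose was 5 without WT libraries 1 and 2 together.

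Of 16 tested tubulin genes 4 rose, one of them Stmn1 with 0.179 without KO library 1, and Tuba1a changed by 0.74 ± 0.09, edgeR adjusted p = 2.3e-06 and Tubb2b by 0.93 ± 0.14, edgeR adjusted p = 9.23e-05. Both are also abundant in neurons, whose markers were higher in the same libraries, and the part of these was not tested. Of 20 tested genes of actin and adhesion 2 rose and 5 fell, among them the integrin Itgav (-0.58 ± 0.09, edgeR adjusted p = 8.13e-05) and the cytoplasmic actin Actg1 (-0.31 ± 0.07, edgeR adjusted p = 0.00477), while the thymosin Tmsb10 (0.91 ± 0.15, edgeR adjusted p = 0.000168) and Marcks (up to 0.0706 without WT library 1) rose. The number that fell was 2 without WT library 2 or KO library 4 and 3 without KO library 2 or 3. Of 24 tested immediate early genes 2 rose and 5 fell, with Fosl2 among the latter (-0.56 ± 0.12, edgeR adjusted p = 0.00231) and Egr1 among the former (0.62 ± 0.15, edgeR adjusted p = 0.00753). Without KO library 3 Egr2, the other that rose, had 0.155. The number of immediate early genes that fell was 3 without WT library 4 and 8 without the KO library 2 of DMSO.

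Few housekeeping genes passed. In edgeR 0 of 78 cytosolic ribosomal protein genes passed, with 4 at an unadjusted p under 0.05, and in DESeq2 0 passed. Of 61 nuclear genes of oxidative phosphorylation 0 passed in edgeR, with 5 at an unadjusted p under 0.05, and 1 passed in DESeq2. Of 30 Rab GTPases 0 passed in edgeR, with 7 at an unadjusted p under 0.05, and 2 passed in DESeq2. Single members passed among 32 proteasome genes, 29 chaperone genes and 13 mitochondrially encoded genes, and each of these calls ended without some single library. Of 21 tested ATF4 and serine synthesis genes 4 rose, and 3 of the 4 reached the filter in WT. The 4 included the first enzyme of serine synthesis, Phgdh (1.39 ± 0.24, edgeR adjusted p = 0.000321). The count that rose was 1 without WT libraries 1 and 2 together, while Atf5 had up to 0.158, without KO library 1.

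**Figure D4:**
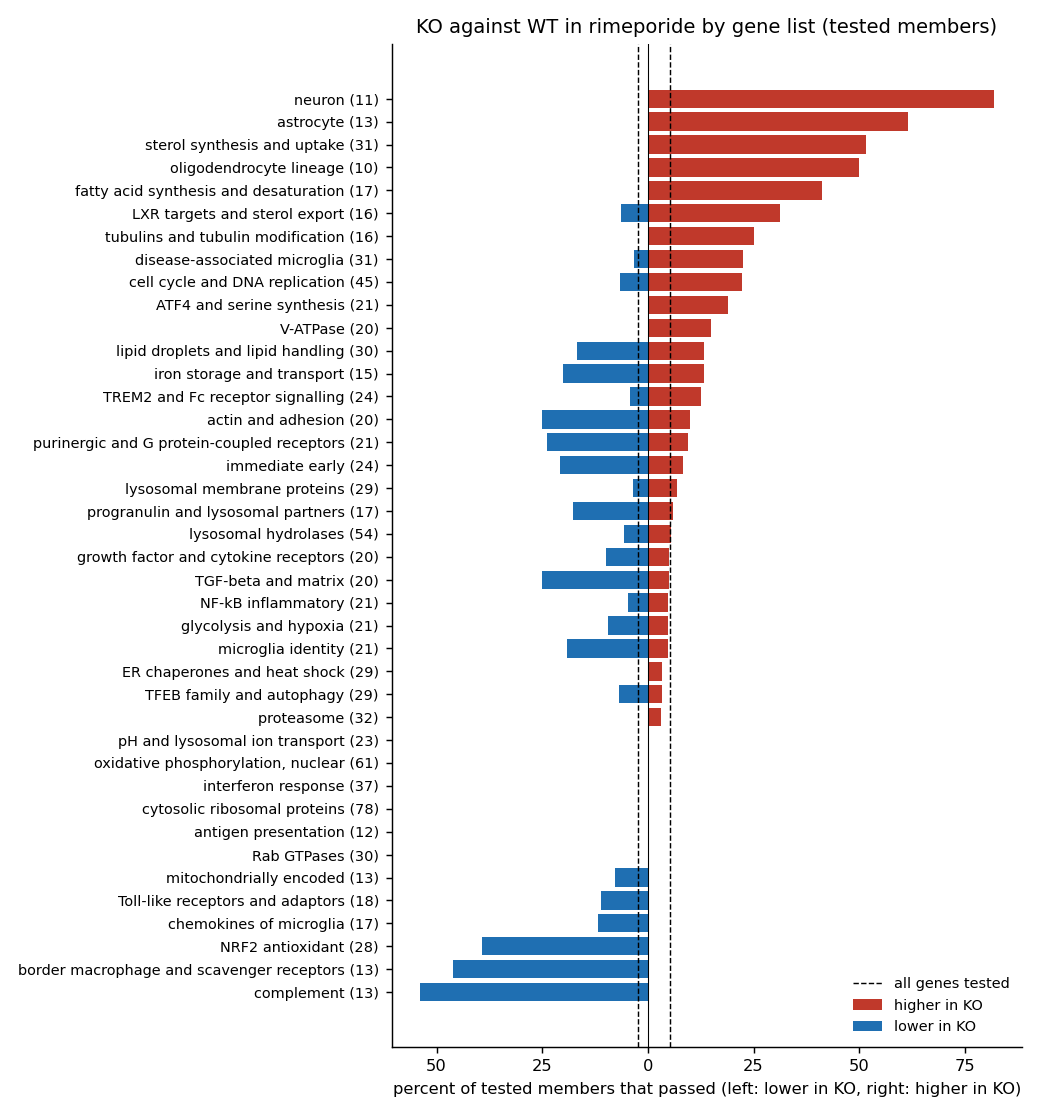
Percent of the tested members of each gene list with at least 10 tested members that passed, to the right where higher and to the left where lower in KO, with the number tested in brackets; dashed lines mark the share of all genes, 5.14% higher and 2.32% lower. The bars of the neuron, astrocyte and oligodendrocyte lists run over markers that in part reached the count filter in KO libraries alone, and over all listed neuron markers 9 of 19 rose.

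The same contrast in DMSO gave 2287 genes, or 18.6% of those tested, with 1236 higher (10.1%) and 1051 lower (8.56%). The count was 808 with the level of processed pseudogenes as a covariate and 1430 without KO library 1 of DMSO, and the overlap given next rests on the fit without that covariate. It uses other libraries than the contrast in rimeporide, so no control is shared. Of the 916 genes called in rimeporide 634 were called in DMSO too, which is 69.2% of the former and 27.7% of the latter list, and 631 of these had the same sign. The other 3 were Nfatc1, Ncaph2 and Heatr5a, whose calls in rimeporide each ended without some libraries (up to 0.0677 without WT library 2, 0.0932 without KO library 2 and 0.0713 without WT library 4). Among the 282 genes called in rimeporide and not in DMSO, 140 had an unadjusted p under 0.05 for the difference of the contrasts and 0 an adjusted one. These are thus not shown to differ in this fit, which has no replicate block. Of the 916, 546 had the larger absolute fold change in rimeporide.

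Values for the members named above stood side by side as follows. For Scd2 the log2 fold change was 2.39 ± 0.14 in rimeporide and 2.59 ± 0.14 in DMSO, for Plin2 -0.75 ± 0.07 and -0.64 ± 0.07, and for Lgals3 0.79 ± 0.08 and 0.63 ± 0.08. Srxn1 was at -0.77 ± 0.12 in rimeporide and -0.15 ± 0.12 in DMSO, with an edgeR adjusted p of 0.0952 for the difference, which did not pass. Lrp1 was at -0.48 ± 0.09 and 0.01 ± 0.09, again with 0.0952 for the difference. Processed pseudogenes, 933 of the tested genes, had a median log2 fold change of 0.18 in rimeporide, where 2 rose and 1 fell, and of -0.67 in DMSO, where 349 fell. Over them the mean centred log2 CPM of a library was -0.12 to 0.52 in WT and 0.13 to 0.59 in KO with rimeporide, so that the groups overlapped.

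A test of the difference between both contrasts (interaction) passed in 2 genes, or 0.0163% of those tested, while 2277, or 18.6%, had an unadjusted p under 0.05. Fbxo34 was at 40.4, 35.7, 38.2 and 33.7 CPM in WT libraries 1 to 4 and at 44.9, 45.2, 40.9 and 40.1 CPM in KO libraries 1 to 4. In rimeporide this F-box protein did not pass, and its groups overlapped by a narrow margin. For Fbxo34 the log2 fold change was 0.21 ± 0.11 in rimeporide and -0.74 ± 0.11 in DMSO, a difference of 0.94 ± 0.16 with an edgeR adjusted p of 0.0368. Ncaph2 was at 42.1, 37.4, 38.7 and 33.9 CPM in WT libraries 1 to 4 and at 41.7, 61.6, 56.7 and 48.3 CPM in KO libraries 1 to 4. For this subunit of condensin II the groups overlapped in KO library 1. For Ncaph2 the log2 fold change was 0.46 ± 0.12 in rimeporide and -0.52 ± 0.12 in DMSO, a difference of 0.98 ± 0.17 with an edgeR adjusted p of 0.0368. The number of genes with a difference between the contrasts ran from 0 to 1497 as single libraries were left out, the latter without the KO library 2 of DMSO. It was 184 in DESeq2, 630 with no filter on low counts and 694 with the replicate number as a block. With the level of processed pseudogenes as a covariate it was 0, so this number depended strongly on the fit.

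**Figure D5:**
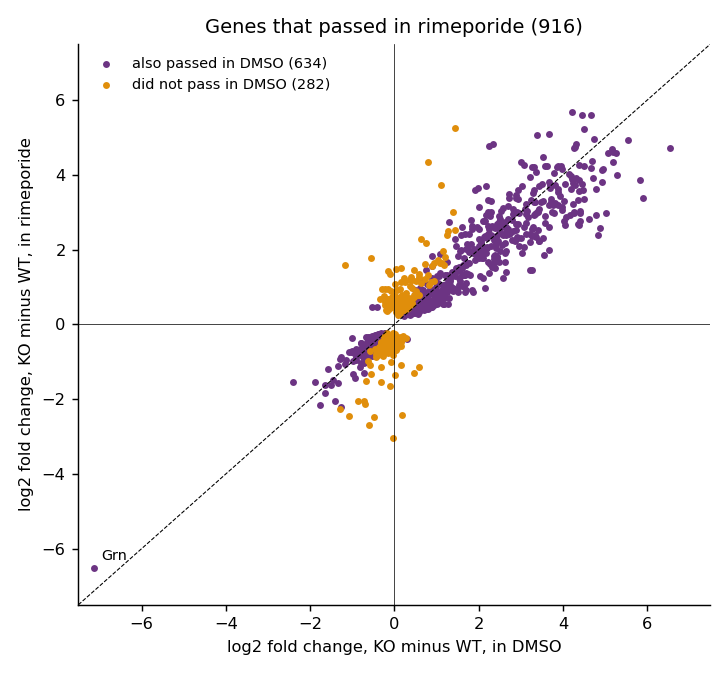
Log2 fold change of KO against WT in DMSO (horizontal axis) and in rimeporide (vertical axis) for the 916 genes that passed in rimeporide, with the line of equal change dashed; 634 also passed in DMSO (purple) and 282 did not (orange). Since the genes were chosen by the rimeporide values, the plot describes them and tests nothing.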

How the data were processed

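RNA of 16 libraries was read with a 3′ tag kit that carries molecular identifiers, per the labels' protocols. Whether identifiers entered the counting is not stated. Per the submitters' processing notes Salmon and GRCm39 were used, with version and annotation not given in the sources used here. Deposited values are expected counts for each gene. The authors also deposited log2 CPM values, which correlated with log2 CPM from the counts at 0.9999 or more. Expected counts were rounded to whole numbers; 13.7% were not whole, and rounding moved 0.0207% of the total. edgeR 4.0.16 (R 4.3.3, limma 3.58.1) kept 12272 of 56980 genes with filterByExpr (minimum count 10, minimum total 15), scaled by TMM, and fitted 1 mean per group to all 16 libraries by quasi-likelihood (12 residual and 10.8 prior degrees of freedom). A gene passed at a Benjamini-Hochberg adjusted p under 0.05 over all genes tested. SEs were taken from the test (absolute log2 fold change divided by the root of F). The same fit recovered most of the largest changes put into counts simulated from its own means and spread. That checks the code and does not measure how many small changes were missed in these data. Library totals over the series were 3666367 to 7929470, which limits what can be tested among scarce genes.

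Genes were named by rule: Grn, the 15 largest changes each way at 5 CPM or more, the 15 smallest p-values, up to 6 per list by p, and those of the difference between contrasts; a few of these are not reported here. The members and lists were chosen with earlier results of these data known. Biotypes came from GENCODE M21, a different build, and 114 of the tested genes were not in it. Promoters of 300 bases came from RefSeq (GRCm38.p6). Alternatives were other scalings, filters, gene sets and fits, leaving out each library, and DESeq2 1.42.0.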

Additional observations from a re-analysis of the deposited data

Results flagged for a closer look

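In 20 of the 390 groups of 4 libraries examined (195 named genes, both genotypes in rimeporide), 1 library stood apart from the other 3 by Dixon's test with its usual critical value. The value given is the gap to the nearest library divided by the group's range. Chance gives about 1 in 20 such groups, so their number is near that share. In WT the high library was library 4 for Cntn1 (0.847), Cx3cr1 (0.832), Pik3cd (0.857), Birc5 (0.858) and Slc7a5 (0.89). It was library 2 for Map2 (0.983), Gria2 (0.86) and Pf4 (0.955), and library 1 for Sod1 (0.84), Tnc (0.847) and Gucy1a1 (1.0, where the others are at 0). The low WT library was library 3 for Atp1b2 (0.862) and library 1 for Dusp1 (0.856). In KO the high library was library 2 for Tmod2 (0.855), library 4 for Lipa (0.841) and library 1 for Stmn1 (0.966) and Dynlt1c (0.969). The low KO library was library 3 for Srebf2 (0.965), library 4 for Fabp5 (0.872) and library 2 for Scarna2 (0.867).

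The genotype contrast differed between rimeporide and DMSO in 2 genes by the interaction test, Ncaph2 and Fbxo34, each with an edgeR adjusted p of 0.0368.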

How the results depend on the processing

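Depth limits the scarce genes, and with 4 libraries a group small changes can be missed. The 916 genes called in rimeporide became 911 with RLE scaling, 918 with total counts, 981 with no filter, 966 with 1 CPM in 4 libraries, 1017 with the pseudogene score as a covariate, 963 with protein-coding genes alone, 824 with the 8 rimeporide libraries alone and 1037 in DESeq2, and no gene called in the reported fit and still tested changed sign in any of these (792 of the 916 were tested with the 8 libraries alone and 880 with protein-coding genes alone). Asked for a change above 1.2-fold, 509 genes passed, 411 higher and 98 lower. Without WT libraries 1 and 2 together, chosen after seeing the data, 535 passed, 394 higher and 141 lower. As each library was left out the counts ran from 701 to 1086, from 500 to 676 higher and from 201 to 410 lower, and from 1430 to 3345 in DMSO. The DMSO count was 808 with the pseudogene covariate. The count of genes that differed between the contrasts was 2 as reported, 630 with no filter, 694 with the replicate block, 0 with the pseudogene covariate (2277 at an unadjusted p under 0.05 as reported), 0 without both WT libraries, 184 in DESeq2 and 0 to 1497 as libraries were left out. With the replicate number as a block the rimeporide count was 1104, 719 higher and 385 lower. Over every pair of groups that differ in genotype or treatment alone, deviations of same-numbered libraries from their group means correlated at -0.0044 to 0.212, above 0.1 in 8 of 16 pairs. In 20 of 32 cases a library correlated best with its own number, where numbers without meaning would give about 1 in 4. The labels do not pair the libraries, and the reported fit has no replicate block. Whether same-numbered libraries share a culture or batch was not tested. Of 189 named genes that passed, 138 passed in every leave-one-out fit.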

Other observations

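Some RNAs outside the lists changed as well. Both tested small Cajal body RNAs fell: Scarna2 (-1.55 ± 0.24, edgeR adjusted p = 0.000127) and Gm22009 (-1.34 ± 0.26, edgeR adjusted p = 0.00124). Malat1, an abundant nuclear long non-coding RNA chosen after its values were seen, fell by 0.69 on the log2 scale (SE 0.12, edgeR adjusted p = 0.000559). The ribosomal protein paralogue Rpl22l1 rose (0.59 ± 0.09, edgeR adjusted p = 0.000114), with 0.03 ± 0.09 in DMSO. The Notch ligand Jag1 fell (-1.30 ± 0.16, edgeR adjusted p = 5.7e-06), and so did the cytohesin-binding protein Cytip (-1.32 ± 0.14, edgeR adjusted p = 5.27e-07) and the p53 inhibitor Mdm2 (-0.49 ± 0.09, edgeR adjusted p = 0.000596).

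Of 40 tested genes nearest to Grn on its chromosome, 20 on each side, 5 passed: Rundc3a, Slc25a39, Gfap, Hexim1 and Mapt. The share that passed was 7.46% over all genes and 6.03% on chromosome 11, which holds Grn. Rundc3a changed by 2.63 ± 0.66, the astrocyte marker Gfap by 3.23 ± 0.36, Mapt by 3.60 ± 0.33 and Hexim1 by -0.46 ± 0.13. The part of the locus and of neural transcripts in these values was not tested. Slc25a39, a mitochondrial carrier gene next to Grn, was at 132, 142, 140.1 and 134 CPM in WT libraries 1 to 4 and at 202, 192, 185 and 174 CPM in KO libraries 1 to 4. The groups did not overlap, with 0.45 ± 0.10 and an edgeR adjusted p of 0.00606 in rimeporide, and 0.13 ± 0.10 with 0.44 in DMSO.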
